A study of Danio rerio with 4 samples.

Results

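Ribosomal protein genes were taken from the deposited gene list by symbol: those that begin with rpl or rps, in any case, without the S6 kinases (rps6k). The rule found 83 symbols of 24438, held by 84 feature identifiers because rpl37 has 2. By their names, 42 encode proteins of the large subunit, 35 proteins of the small subunit and 4 proteins of the stalk (rplp0, rplp1, rplp2 and rplp2l). The other 2, rpl7l1 and rps19bp1, carry the prefix but are known as ribosome assembly or binding factors and not as ribosomal proteins. All 83 had UMIs in each of the 4 libraries.

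Each ribosome joins a small subunit, which reads the mRNA, to a large subunit, which forms the peptide bond, and each subunit packs ribosomal RNA with a set of small, basic proteins. The acidic P proteins form the stalk of the large subunit, which recruits the elongation factors. In vertebrates the mRNAs of nearly all ribosomal proteins begin with a terminal oligopyrimidine (TOP) tract, through which the mTOR kinase sets how much of them is translated. A few ribosomal protein genes have paralogues, so that the same position in the ribosome can be filled from either of a pair of genes.

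The data were single-cell 3' RNA counts from zebrafish (strain AB) heart ventricles, from cells dissociated with collagenase and elastase and sorted by FACS for a pdgfrb:EGFP reporter. All 4 libraries also carried cxcl12b:Citrine. The pdgfrb-/- library (um148 allele) and its wildtype library came from fish of 6 months that carried fli1a:DsRed as well. The injured library came from fish of 18 months, 7 days after amputation of the ventricle apex, and the uninjured library from fish of 18 months. Each group had 1 library, so no comparison has a replicate check. How many fish made up a library is not given in the sources used here. Between them, the 2 pairs of libraries differ in age and transgenes and were not compared with each other as conditions.

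After filters 1119 pdgfrb-/- cells, 947 wildtype cells, 1388 injured cells and 2003 uninjured cells were kept, with a median of 1729 to 3651 UMIs per cell; 4 of the kept barcodes occurred in more than 1 library. pdgfrb had 7 UMIs in the pdgfrb-/- library and 115 in the wildtype library, and 414 in the injured and 211 in the uninjured library. Cells were clustered without ribosomal protein genes and named "-like" from marker genes. Fibroblast/epicardium-like cells pool the fibroblast-like and the epicardium-like clusters, and came mostly from different clusters in the 2 pairs. The cluster with 127 pdgfrb-/- and 110 wildtype cells of this class held 1 injured and 6 uninjured cells. Endocardium-like cells were named from a joint marker list for endothelium and endocardium, so these cell types are not told apart. Despite the sort for a mural and fibroblast reporter, cardiomyocyte-like cells were the largest class in every library, and mural-like cells numbered 0 in the pdgfrb-/- library and 92 in the wildtype library, and 18 in the injured and 19 in the uninjured library. Levels are in CPM, the class's UMIs added up in a library and scaled to a fixed total. Intervals are 95% and cover counting error only, not the spread between fish or preparations. A gene was called past 1.5-fold when its ratio lay beyond 1.5-fold and its interval excluded equality, where both libraries together held at least 20 of its UMIs. TMM scaling, which trims the most extreme genes and centres the rest, was the alternative to the share of all UMIs. Where they part, both are given for most shares and counts of members, but only for some single genes. Log2 ratios of single genes are before TMM scaling unless stated. TMM scaling subtracts 0.33 from them in cardiomyocyte-like and 0.38 in fibroblast/epicardium-like cells of the injured pair. In pdgfrb-/- fibroblast/epicardium-like cells the value subtracted is -0.30, so ratios there rise. In such sums, a different mix of cells within the class and a different level of a gene per cell cannot be told apart.

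The part of the mRNA that ribosomal proteins took up differed between cell classes, though some classes lay close together. Among the classes with at least 15 cells in the library, their share of all UMIs was highest in fibroblast/epicardium-like cells: 37.3% in pdgfrb-/-, 27.15% in wildtype, 35.5% in injured and 42.9% in uninjured libraries. Cardiomyocyte-like cells had 19.5% in pdgfrb-/-, 18.1% in wildtype, 29.9% in injured and 25.9% in uninjured libraries. Within each library the fibroblast/epicardium-like share was above the cardiomyocyte-like share, by 1.91-fold in pdgfrb-/-, 1.501-fold in wildtype, 1.19-fold in injured and 1.65-fold in uninjured hearts. Endocardium-like cells, described in the 18-month pair, had 32.1% in the injured and 30.2% in the uninjured library, macrophage-like cells 29.2% and 28.0% in the same order, and T and NK cell-like cells 32.9% in both. These are shares of summed UMIs. The median macrophage-like cell had 27.0% in injured and 23.9% in uninjured. In the same order, the median T and NK cell-like cell had 26.2% and 25.5%. The median cardiomyocyte-like cell had 30.4% and 25.7%, and the median fibroblast/epicardium-like cell 33.7% and 41.2%. Injured fibroblast/epicardium-like cells were deeper, with a median of 6352 UMIs against 2987 in cardiomyocyte-like cells. Split by depth into 4 bins, their shallowest (2566 UMIs) had a median share of 28.0%. The cardiomyocyte-like bin nearest in depth (2317.5 UMIs) had 31.7%, so at low depth the injured contrast was reversed. All other bins of this class lay above every cardiomyocyte-like bin of their library. Mural-like cells, the coat cells of small vessels, had a low share in each library that held them: 9.96% in wildtype (92 cells), 14.6% in injured (18 cells) and 14.7% in uninjured (19 cells). Among cardiomyocyte-like cells the cluster led by titin and sarcomere genes (ttn.1, ttn.2) had the lowest share. It was 10.7% in pdgfrb-/- (68 cells), 10.2% in wildtype (31 cells), 19.1% in injured (33 cells) and 18.3% in uninjured (13 cells) libraries. Its median cell lay lower, at 7.35%, 5.54%, 12.5% and 8.31% in the same order.

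**Figure D1:**
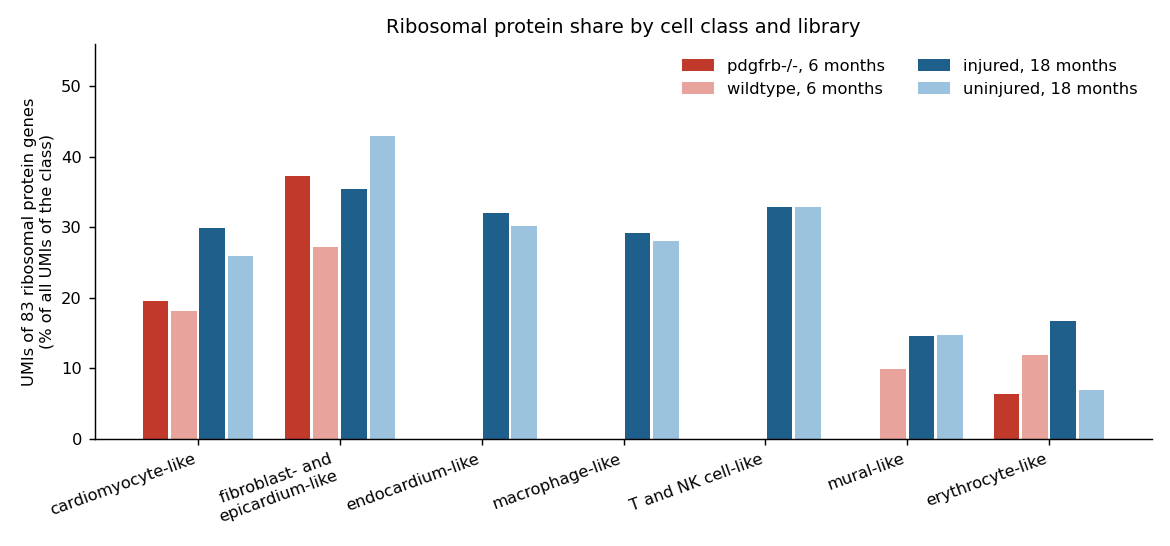
Share of all UMIs that came from the 83 ribosomal protein genes (y axis, percent) by cell class (x axis) and library (bars); classes with fewer than 15 cells in a library have no bar. Fibroblast-like and epicardium-like cells stand above cardiomyocyte-like cells in all 4 libraries, and mural-like cells lie between 9.96% and 14.7%; each bar is 1 library.

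The members were counted at very unequal depth. The 6 with most UMIs were rplp1 (stalk), rps29, rpl39 (a protein of the exit tunnel), rps2, rpl36a and rpl37, with 108052 to 125237 UMIs each over the 4 libraries; 64 members had more than 50000. At the other end rps8b had 51 UMIs, rps19bp1 461, rpl7l1 650, rpl26 2680 and rps27l 3017. The large subunit supplied 49.99% of all ribosomal protein UMIs, the small subunit 43.4% and the stalk 6.60%. Over both large classes and the 4 libraries the small subunit made up 43.1% to 44.2% and the stalk 6.02% to 7.55%, and in erythrocyte-like cells the stalk reached 12.5%, in the pdgfrb-/- library.

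Cells of the pdgfrb-/- library were compared with wildtype cells of the same age. Fibroblast-like and epicardium-like cells showed the larger difference: the ribosomal protein share was 37.3% in 152 pdgfrb-/- cells and 27.15% in 125 wildtype cells, a log2 ratio of 0.46 (interval 0.45 to 0.47) and 0.76 after TMM scaling. In cardiomyocyte-like cells the share was 19.5% in pdgfrb-/- (929 cells) and 18.1% in wildtype (700 cells), a log2 ratio of 0.11 and 0.08 after TMM scaling. Over all kept cells it was 21.7% in pdgfrb-/- and 19.0% in wildtype; the wildtype library also held 92 mural-like cells, whose share was 9.96%. No member was past 1.5-fold in either direction over all kept cells, beside 5.26% of all genes higher and 16.0% lower.

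The difference in fibroblast/epicardium-like cells was spread over nearly the whole set and over both subunits. Of 81 members measured, 80 had a ratio above 0 and 77 an interval above 0, with a median log2 ratio of 0.45, beside -0.27 over all 2588 genes tested. The quartiles of all other genes were -0.71 and 0.15. Counting intervals narrow with depth, and no count of ratios or intervals above 0 over all genes is given. The median was 0.45 for the large subunit, 0.48 for the small subunit and 0.38 for the stalk. Past 1.5-fold there were 7 members higher and 0 lower, beside 4.25% of all genes higher and 16.9% lower; after TMM scaling 75 were higher and 0 lower, beside 12.1% and 8.31% of all genes. The lower and upper quartiles of the members were 0.41 and 0.54 on the log2 scale, both under 1.5-fold.

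By the rule for named members, rps15, rps29 and rps14, all of the small subunit, stood out most. rps15 was at 4631 CPM in pdgfrb-/- and 2952 CPM in wildtype cells, a log2 ratio of 0.65 (0.52 to 0.78). rps29 was at 9791 CPM in pdgfrb-/- and 6476 CPM in wildtype cells, a log2 ratio of 0.60 (0.51 to 0.68). rps14 was at 7055 CPM in pdgfrb-/- and 4730 CPM in wildtype cells, a log2 ratio of 0.58 (0.48 to 0.68), and did not pass the fold before TMM scaling. The other members past it were rps27.2, rps3, rpl30, rpl23a and rpl22l1, with log2 ratios of 0.59 to 0.67. rpl7l1, 1 of the 2 assembly or binding factors, was level at 64.5 CPM in pdgfrb-/- and 67.0 CPM in wildtype cells, from 24 and 17 UMIs.

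The cluster that held most of these cells, 127 pdgfrb-/- and 110 wildtype, had a share of 36.3% and 26.0% in the same order. Within each library deeper cells of this class had a higher share, and the pdgfrb-/- cells were deeper, with a median of 2288 UMIs against 1734 in wildtype. The cells of each library were split by depth into 4 bins of equal cell number, so the bins set side by side were deeper in pdgfrb-/-, with a median of 2821 UMIs against 2195 in wildtype in the third. In each bin the median cell's share was higher in pdgfrb-/- cells, from 29.9% against 21.7% in wildtype in the shallowest to 40.6% against 32.4% in the deepest. With every cell thinned to 500 UMIs and clustered again, the log2 ratio was 0.45. Thinning leaves each cell's expected share as it was, so it cannot remove a link between share and depth before thinning. Other genes moved with the share. The 13 immediate early and heat shock genes of the dissociation stress list summed to 24121 CPM in pdgfrb-/- and 44954 CPM in wildtype cells, with hspa1b at 0 in both. Before TMM scaling 8 of 12 tested were past 1.5-fold lower, beside 16.9% of all genes. Their count after TMM scaling, which raises ratios in this class, is not given. The 13 fibroblast markers summed to 17604 CPM in pdgfrb-/- and 27465 CPM in wildtype, the 12 epicardium markers to 9544 and 5889 CPM in the same order (wt1b at 0 in wildtype), and the 10 cardiomyocyte markers to 1191 and 2791 CPM (ryr2b at 0 in both). Their part in the result was not tested.

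In cardiomyocyte-like cells 74 of 82 members had a ratio above 0, with a median of 0.11, beside 0.07 over all 4401 genes tested. The members' quartiles, 0.05 and 0.15, lay inside those of all other genes, -0.30 and 0.51. No count of ratios above 0 over all genes is given. No member was past 1.5-fold higher and 1 was lower, beside 11.0% of all genes higher and 7.38% lower. That member was rpl26, a large subunit protein, at 143 CPM in pdgfrb-/- and 225 CPM in wildtype cells (321 and 349 UMIs), a log2 ratio of -0.66 (-0.88 to -0.43). rpl29, another large subunit protein, was also lower, at 3026 CPM in pdgfrb-/- and 3367 CPM in wildtype cells, a log2 ratio of -0.15 (-0.21 to -0.10). rpl9, rps2 and rplp1 were the highest, with log2 ratios of 0.36, 0.32 and 0.29. All 7 cardiomyocyte-like clusters with at least 10 cells in both libraries had the higher share in pdgfrb-/- cells, with log2 ratios of 0.03 to 0.19. In the cluster with the smallest ratio (36 pdgfrb-/- and 38 wildtype cells) the interval, -0.005 to 0.056, included equality.

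The injured library was compared with the uninjured one to see how the set differs in the regenerating ventricle. The share over all kept cells was 31.3% in injured and 30.9% in uninjured, a log2 ratio of 0.02 that turns to -0.30 after TMM scaling. Over all deposited barcodes the log2 ratio was 0.21, with mitochondrial UMIs at 26.7% in injured and 35.8% in uninjured. Of the other UMIs of those barcodes, ribosomal protein genes held 31.7% in injured and 31.3% in uninjured. By the share of all UMIs the classes differed in opposite directions, and after TMM scaling none of those described lay above 0. Over all kept cells 2 members, rpl22l1 and rps27l, were past 1.5-fold higher and 0 lower, beside 22.8% of all genes higher and 3.83% lower; after TMM scaling 0 were past it, beside 9.89% higher and 9.94% lower. Fibroblast-like and epicardium-like cells had 35.5% in injured (241 cells) and 42.9% in uninjured (335 cells), a log2 ratio of -0.27 (-0.28 to -0.27) and -0.65 after TMM scaling. Cardiomyocyte-like cells had 29.9% in injured (664 cells) and 25.9% in uninjured (1059 cells), a log2 ratio of 0.20 (0.20 to 0.21) that turns to -0.13 after TMM scaling. Endocardium-like cells had 32.1% in injured (267 cells) and 30.2% in uninjured (369 cells), a log2 ratio of 0.09 that becomes 0.00 after TMM scaling. The median log2 ratio of all genes tested was 0.28 in cardiomyocyte-like, 0.39 in fibroblast/epicardium-like and 0.10 in endocardium-like cells, and in cardiomyocyte-like cells the members' median of 0.20 lay below it. The log2 ratio of the share in cardiomyocyte-like cells differed from that in fibroblast/epicardium-like cells by 0.48; the difference was not tested, with 1 library per group.

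**Figure D2:**
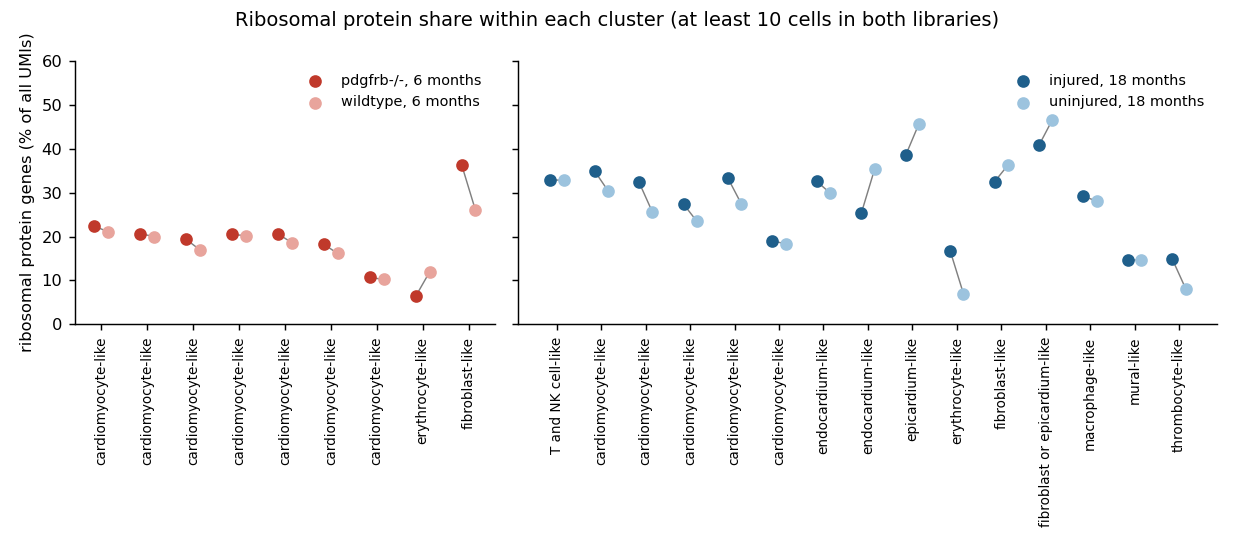
Ribosomal protein share of all UMIs (y axis, percent) in each cluster with at least 10 cells in both libraries (x axis, named by class); each line joins the 2 libraries of a pair, pdgfrb-/- and wildtype at the left and injured and uninjured at the right. All 5 cardiomyocyte-like clusters are higher in the injured library as a share, although after TMM scaling the class is lower, and the fibroblast/epicardium-like clusters are lower in it.

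Within the fibroblast-like, epicardium-like and cardiomyocyte-like clusters the direction was that of their class. The cluster with krt91 and c4b among its leading genes had 40.8% in injured (83 cells) and 46.6% in uninjured (182 cells). The fibroblast-like cluster had 32.5% in injured (133 cells) and 36.3% in uninjured (121 cells), and the epicardium-like cluster 38.5% in injured (24 cells) and 45.8% in uninjured (26 cells). The fibroblast-like cluster, with the lowest share of these, held 133 of 241 injured and 121 of 335 uninjured cells of the class. All 5 cardiomyocyte-like clusters with enough cells had the higher share in the injured library, with log2 ratios of 0.06 to 0.34 before TMM scaling. The 2 endocardium-like clusters went opposite ways: 32.6% in injured and 29.9% in uninjured in the large one, and 25.3% in injured (24 cells) and 35.3% in uninjured (17 cells) in the small one.

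In fibroblast/epicardium-like cells 71 of 82 members had an interval below 0 and 3 one above 0, with a median of -0.29 beside 0.39 over all 7299 genes tested. The members' quartiles were -0.37 and -0.16, and those of all other genes -0.01 and 0.83. Counting intervals narrow with depth, and no count of intervals over all genes is given. The median was -0.30 for the large subunit, -0.28 for the small subunit and -0.19 for the stalk. Past 1.5-fold 2 members were higher and 0 lower, beside 25.4% of all genes higher and 4.14% lower; after TMM scaling 0 were higher and 58 lower, beside 11.5% and 11.4% of all genes. The lowest by the naming rule were rps9, rpl22 and rpl35. rps9, of the small subunit, was at 4427 CPM in injured and 6338 CPM in uninjured cells, a log2 ratio of -0.52 (-0.56 to -0.48). rpl35, of the large subunit, was at 5126 CPM in injured and 7164 CPM in uninjured cells, a log2 ratio of -0.48 (-0.52 to -0.44). The injured cells were deeper, with a median of 6352 UMIs against 4504 in uninjured. In the 4 bins by depth within each library, which were deeper in injured cells (12838 UMIs against 8327 in uninjured in the deepest), the median cell's share was lower in injured cells in all 4. With cells thinned to 500 UMIs and clustered again, the log2 ratio was -0.23. Here too thinning cannot remove a link between share and depth before thinning. In endocardium-like cells the median cell's share was higher in injured cells in 2 of the 4 bins, with 23.1% in injured and 24.4% in uninjured in the shallowest. The 13 fibroblast markers summed to 24664 CPM in injured and 11029 CPM in uninjured cells, the 12 epicardium markers to 10604 and 13902 CPM and the 13 dissociation stress genes to 21403 and 23026 CPM in the same order, with only hspa1b of the last list at 0 in both. Their part in the result was not tested.

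In cardiomyocyte-like cells 76 of 83 members had an interval above 0 by their share of all UMIs, with a median of 0.20 beside 0.28 over all 5051 genes tested. The members' quartiles, 0.12 and 0.29, lay inside those of all other genes, -0.09 and 0.68. Counting intervals narrow with depth, and no such count over all genes is given, so the 76 cannot be read as particular to the set. Past 1.5-fold 4 members were higher and 0 lower, beside 18.9% of all genes higher and 3.07% lower; after TMM scaling 1 was higher and 0 lower, beside 8.33% and 10.1%. The 4 were rpl22l1, rpl9, rpl26 and rpl7l1. rpl9 was at 2849 CPM in injured and 1827 CPM in uninjured cells, a log2 ratio of 0.64 (0.59 to 0.69). rplp1, a stalk protein, was at 6255 CPM in injured and 4285 CPM in uninjured cells, a log2 ratio of 0.55 (0.51 to 0.58). Among members with at least 50 UMIs rps27.2 and rpl22 were the lowest, with log2 ratios of -0.09 and -0.06. The 10 cardiomyocyte markers summed to 128355 CPM in injured and 157097 CPM in uninjured cells, and the 13 dissociation stress genes to 3217 and 2058 CPM in the same order. None of either list was at 0. Before TMM scaling 9 of the stress genes were past 1.5-fold higher, beside 18.9% of all genes. Their count after TMM scaling, which lowers ratios in this class, is not given. The erythrocyte markers summed to 249 CPM in injured and 64.7 CPM in uninjured cardiomyocyte-like cells, with 1 of 10 at 0 in injured and 4 at 0 in uninjured. Their part in the result was not tested.

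**Figure D3:**
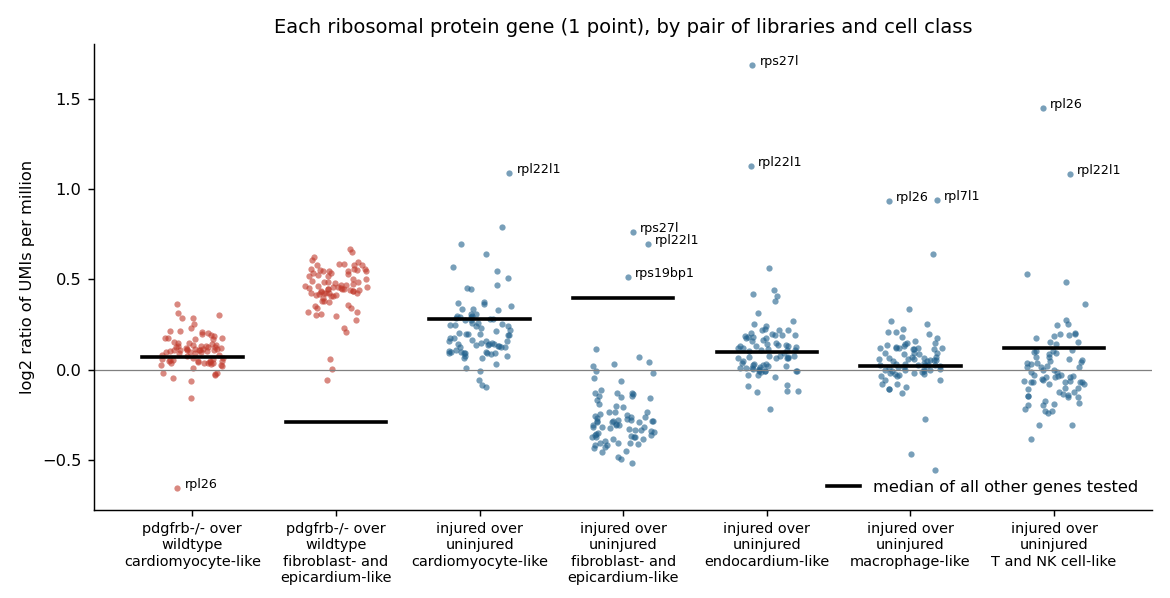
Log2 ratio of CPM (y axis) for each ribosomal protein gene with at least 20 UMIs (points), by pair of libraries and cell class (x axis); the black bars are the median of all other genes tested. The points lie above the bar in pdgfrb-/- fibroblast/epicardium-like cells and mostly below it in the injured ones, and in injured cardiomyocyte-like cells most lie above 0 but under the bar; rpl22l1 and rps27l stand above the rest in several injured classes.

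rpl22l1 differed from the bulk of the set. It encodes the paralogue of rpl22, a large subunit protein that binds RNA, and in zebrafish the pair is known to act in opposite ways in early blood development. In cardiomyocyte-like cells rpl22l1 was at 1176 CPM in injured and 552 CPM in uninjured hearts (2937 and 2007 UMIs), a log2 ratio of 1.09 (1.01 to 1.17) and 0.76 after TMM scaling. In endocardium-like cells it was at 729 CPM in injured and 334 CPM in uninjured hearts, a log2 ratio of 1.13 (0.97 to 1.29). In T and NK cell-like cells it was at 1045 CPM in injured and 494 CPM in uninjured hearts, a log2 ratio of 1.08 (0.78 to 1.39). In fibroblast/epicardium-like cells it was at 971 CPM in injured and 598 CPM in uninjured hearts, a log2 ratio of 0.70 (0.59 to 0.81) and 0.32 after TMM scaling. Macrophage-like cells went the other way, with 465 CPM in injured (64 cells) and 641 CPM in uninjured (97 cells), a log2 ratio of -0.46 (-0.71 to -0.22); without the 5% of cells with most of its UMIs this became -0.24 (-0.56 to 0.07).

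rpl22 itself did not share the difference. It was at 2997 CPM in injured and 3119 CPM in uninjured cardiomyocyte-like cells, a log2 ratio of -0.06, and at 3771 CPM in injured and 5309 CPM in uninjured fibroblast/epicardium-like cells, a log2 ratio of -0.49. As a part of the UMIs of both genes, a measure that no scaling alters, rpl22l1 made up 28.2% in injured and 15.04% in uninjured cardiomyocyte-like cells, 20.5% and 10.1% in fibroblast/epicardium-like cells, 17.8% and 8.50% in endocardium-like cells and 26.6% and 12.2% in T and NK cell-like cells, injured first in each. It made up 12.6% in injured and 16.8% in uninjured macrophage-like cells. Of 15 clusters with at least 10 cells in both libraries 12 had the higher proportion in the injured library. The exceptions were the macrophage-like cluster, the small endocardium-like one (17.4% in injured, 24.2% in uninjured) and the thrombocyte-like one, which had 3 UMIs in the uninjured library. Between the libraries of 6 months the proportion was 9.16% in pdgfrb-/- and 9.20% in wildtype cells. Without the 5% of cells with most of its UMIs in each library, the log2 ratio of rpl22l1 was 1.18 in cardiomyocyte-like, 1.14 in endocardium-like, 1.30 in T and NK cell-like and 0.75 in fibroblast/epicardium-like cells.

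rps27l, the paralogue of the zinc-finger small subunit gene rps27 and in human cells a known p53 target, was also higher in injured endocardium-like and fibroblast/epicardium-like cells, though from few UMIs. In endocardium-like cells it was at 331 CPM in injured and 103 CPM in uninjured hearts (444 and 148 UMIs), a log2 ratio of 1.69 (1.41 to 1.96). In fibroblast/epicardium-like cells it was at 306 CPM in injured and 180 CPM in uninjured hearts (549 and 311 UMIs), a log2 ratio of 0.76 (0.56 to 0.97) and 0.38 after TMM scaling, which is not past 1.5-fold. In macrophage-like cells it was at 82.3 CPM in injured and 121 CPM in uninjured hearts (37 and 80 UMIs), a log2 ratio of -0.56 (-1.16 to 0.02) and -0.63 after TMM scaling. Of the UMIs of rps27.1 and rps27l together, a sum that leaves out the further copy rps27.2, rps27l made up 7.51% in injured and 2.51% in uninjured endocardium-like cells. Its UMIs were uneven over cells, with up to 55 in 1 injured endocardium-like cell; without the 5% of cells with most of them the log2 ratio was 1.40 in endocardium-like cells and 0.83 in fibroblast/epicardium-like cells, and in macrophage-like cells -0.82 (-1.60 to -0.09). In cardiomyocyte-like cells the log2 ratio of 0.51 turned to -0.11 (-0.41 to 0.19) without those cells.

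**Figure D4:**
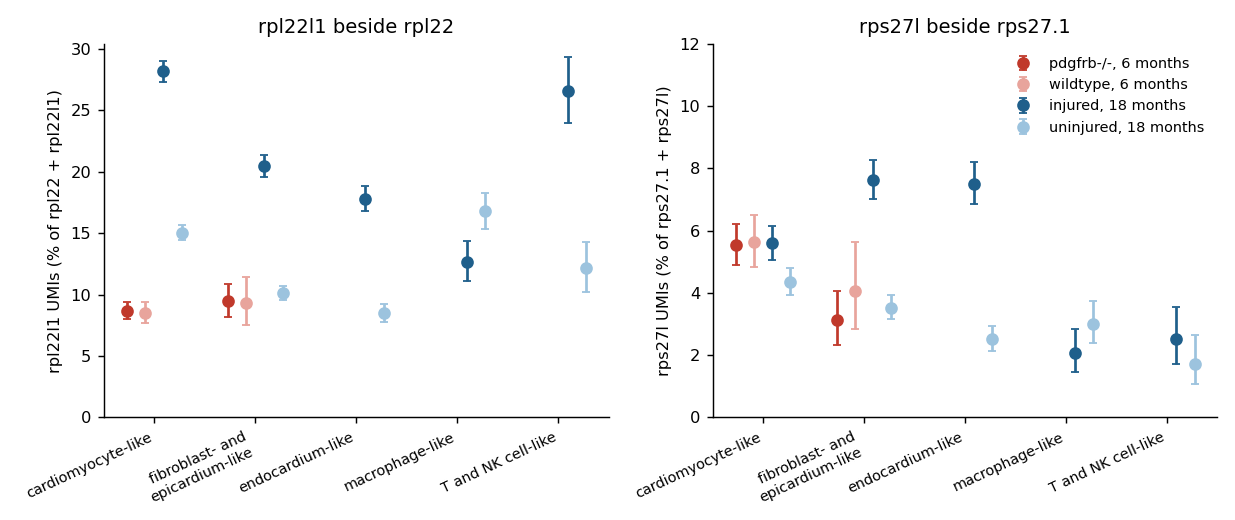
Left, rpl22l1 as a percentage of rpl22 plus rpl22l1 UMIs; right, rps27l as a percentage of rps27.1 plus rps27l UMIs (rps27.2 left out), by cell class (x axis) and library (points), with exact binomial 95% intervals (counting error only). rpl22l1 lies at 17.8% to 28.2% in 4 injured classes and at 8.50% to 15.04% in the same uninjured classes; in macrophage-like cells injured is lower, and the 6-month libraries lie close together.

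A few members moved relative to the summed set in every injured class described. rpl26, rpl29, rplp1 and rps29 made up more of the ribosomal protein UMIs in injured than in uninjured cells in all 5 classes with at least 50 cells in both libraries, with intervals above 0. For rpl29 these log2 ratios ran from 0.25 to 0.48, for rplp1 from 0.12 to 0.37, for rps29 from 0.10 to 0.27 and for rpl26, from fewer UMIs, from 0.39 to 1.45. rpl35 and rps14 made up less of them in injured cells in all 5 classes, with intervals below 0 and log2 ratios of -0.23 to -0.07 and -0.14 to -0.08. By the share of all UMIs the log2 ratios of rps29 ran from -0.01 to 0.33, of rpl35 from -0.48 to 0.14 and of rps14 from -0.35 to 0.09. These members were picked from 83 by their values. As parts of 1 sum some must rise where others fall, and no such count over all genes is given, so they cannot be read as particular to the set. In macrophage-like cells rpl6, rpl26 and rpl7l1 were past 1.5-fold higher and no member lower, beside 6.33% of all genes higher and 5.89% lower; after TMM scaling rpl26 and rpl7l1 were higher and rps27l lower, beside 4.94% and 7.25%. rpl6 was at 1557 CPM in injured and 1000 CPM in uninjured macrophage-like cells, a log2 ratio of 0.64 (0.48 to 0.79) and 0.56 after TMM scaling. In T and NK cell-like cells rpl22l1 and rpl26 were past it, beside 14.7% of all genes higher, and in endocardium-like cells rpl22l1 and rps27l, beside 8.53% higher; no member was past it lower in those classes, beside 11.7% and 4.76%.

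The makeup of the set also differed between cell classes. The pair rplp2 and rplp2l, both genes for the stalk protein P2, differed most. rplp2l was at 5002 CPM in pdgfrb-/-, 3847 CPM in wildtype, 5119 CPM in injured and 5178 CPM in uninjured fibroblast/epicardium-like cells, against 1206, 1046, 2012 and 1355 CPM in cardiomyocyte-like cells of the same libraries. rplp2 was lower in each fibroblast/epicardium-like class, with 3644, 2802, 3932 and 5092 CPM against 3889, 3865, 6312 and 6038 CPM in cardiomyocyte-like cells. As a part of the UMIs of both genes, rplp2l made up 57.8% in pdgfrb-/-, 57.9% in wildtype, 56.6% in injured and 50.4% in uninjured fibroblast/epicardium-like cells, against 23.7%, 21.3%, 24.2% and 18.3% in cardiomyocyte-like cells. Macrophage-like cells had 55.4% in injured and 54.7% in uninjured hearts, and endocardium-like cells 50.9% and 43.4%.

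**Figure D5:**
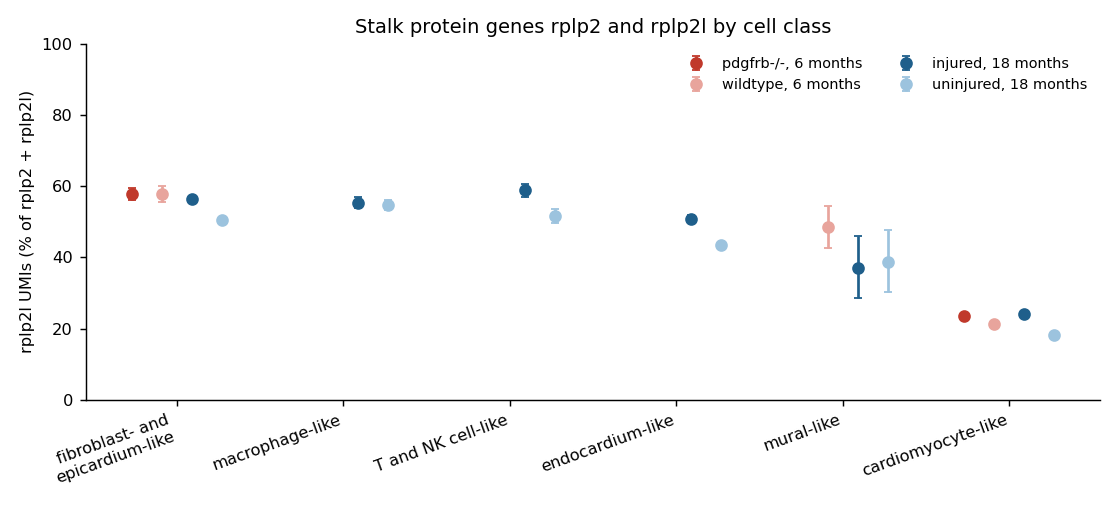
rplp2l as a percentage of rplp2 plus rplp2l UMIs (y axis) by cell class (x axis) and library (points), with exact binomial 95% intervals (counting error only). Cardiomyocyte-like cells lie at 18.3% to 24.2% and fibroblast/epicardium-like cells at 50.4% to 57.9%, with no overlap between the 2 classes.

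Of 80 members with enough UMIs, 21 made up more and 21 less of the ribosomal protein UMIs in fibroblast/epicardium-like than in cardiomyocyte-like cells in all 4 libraries, and the other 38 differed in sign between libraries. As parts of 1 sum, some members must rise where others fall. No such count over all genes is given, so these counts cannot be read as particular to the set. After rplp2l, the highest were rpl9 and rplp1, with log2 ratios relative to the set of 0.44 to 0.94 and 0.30 to 0.59. The lowest were rplp2, at -0.93 to -1.05, rps4x, a small subunit protein, at -0.31 to -0.45, and rpl29, at -0.30 to -0.44. Other paralogues parted less by class. rps27.2 made up 25.8% of rps27.1 and rps27.2 in injured and 24.9% in uninjured T and NK cell-like cells, against 45.5% and 49.2% in cardiomyocyte-like cells. rpl5b made up 40.3% to 44.3% of rpl5a and rpl5b in fibroblast/epicardium-like cells and 31.5% to 35.7% in cardiomyocyte-like cells; Rpl5 is known for binding the 5S RNA. rps26l held close to 58.2% to 59.6% and 59.5% to 61.2% of the rps26 pair in the same classes. rps8b had 0 UMIs in pdgfrb-/-, wildtype and uninjured fibroblast/epicardium-like cells and 4 in injured ones, and 7 to 14 in cardiomyocyte-like cells of each library. How the counting divided reads between copies that are alike is not given in the sources used here, so the proportions within a pair are less certain than their differences between classes.

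Other genes of translation were described from lists chosen for this tissue and set. Partners of the TOP class (among them elongation factors, tpt1 and faua, which fuses a ubiquitin-like protein to a ribosomal protein) had a median log2 ratio of 0.31 in pdgfrb-/- and -0.22 in injured cells of the fibroblast/epicardium-like class. In fibroblast/epicardium-like cells 2 of 23 tested were past 1.5-fold higher and 0 lower in pdgfrb-/- than in wildtype cells, beside 4.25% and 16.9% of all genes; after TMM scaling 12 were higher, beside 12.1%. The elongation factor eef1a1l1 was at 7786 CPM in pdgfrb-/- and 6109 CPM in wildtype cells, a log2 ratio of 0.35. In the same class 1 of 27 was higher and 3 lower in injured than in uninjured cells, beside 25.4% and 4.14% of all genes; after TMM scaling 12 were lower, beside 11.4%. In cardiomyocyte-like cells the list did not share the higher share of the injured library, with a median of 0.00 over 25 genes and eef1a1l1 at 10623 CPM in injured and 11039 CPM in uninjured cells.

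Of the genes of ribosome biogenesis, which act in the nucleolus, 8 of 36 were past 1.5-fold higher and 1 lower in injured fibroblast/epicardium-like cells, near the 25.4% and 4.14% of all genes, and their median log2 ratio was 0.44 beside 0.39 over all genes; after TMM scaling 4 were higher and 2 lower, beside 11.5% and 11.4%. npm1a, a nucleolar chaperone, was at 201 CPM in injured and 137 CPM in uninjured cells, a log2 ratio of 0.56 (0.32 to 0.80) before TMM scaling. That interval holds the median of 0.39 over all genes. Its lower bound lies below the 0.38 that TMM scaling subtracts, so the scaled interval includes equality. The helicase ddx21 was at 141 CPM in injured and 276 CPM in uninjured cells, a log2 ratio of -0.97 (-1.20 to -0.75). In injured cardiomyocyte-like cells 10 of 31 were higher and 1 lower, beside 18.9% and 3.07% of all genes, and after TMM scaling 6 and 2, beside 8.33% and 10.1%. Of the mitochondrial ribosomal protein genes, 14 of 73 were past 1.5-fold lower and 1 higher in pdgfrb-/- cardiomyocyte-like cells, beside 7.38% and 11.0% of all genes, with a median log2 ratio of -0.28; mrpl33 was at 208 CPM in pdgfrb-/- and 302 CPM in wildtype cells, a log2 ratio of -0.54 (-0.72 to -0.35). In injured cardiomyocyte-like cells 7 of 75 were higher and 1 lower, beside 18.9% and 3.07% of all genes, and after TMM scaling 1 and 15, beside 8.33% and 10.1%. Among genes of mTOR signalling, eif4ebp3l, a repressor of cap-dependent translation, was at 696 CPM in pdgfrb-/- and 418 CPM in wildtype fibroblast/epicardium-like cells, a log2 ratio of 0.74 (0.40 to 1.08), and at 191 CPM in injured and 661 CPM in uninjured ones, a log2 ratio of -1.79 (-1.97 to -1.61). mycb, a myc transcription factor, was at 747 CPM in pdgfrb-/- and 2014 CPM in wildtype cells of that class, a log2 ratio of -1.43 (-1.65 to -1.22). Of that list 3 of 7 tested genes were higher and 1 lower in pdgfrb-/- cells, beside 4.25% and 16.9% of all genes, and after TMM scaling 4 and 1, beside 12.1% and 8.31%. In injured cells 0 of 17 were higher and 3 lower, beside 25.4% and 4.14%, and after TMM scaling 0 and 5, beside 11.5% and 11.4%.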

How the data were processed

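The values are UMI counts per gene and cell barcode, deposited by the authors as 1 matrix per library and made with 10x 3' v3.1 chemistry; per the file headers Cell Ranger 4.0.0 wrote them. The genome build was GRCz11, per the submitters' processing notes, which also name Seurat without its step. Whether counting used strand is not given in the sources used here.

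Features of the same symbol were summed. Barcodes were kept from 200 genes upwards if mitochondrial UMIs made up no more than 25%; 13 of 5470 that Scrublet marked (0.238%) were left out, which is too few for the caller to have worked, so doublets may remain. Cells of all libraries were clustered together (scanpy 1.11.5, 1990 variable genes, 30 components, 15 neighbours, Leiden resolution 1.0) without ribosomal protein, mitochondrial, haemoglobin and pdgfrb genes. Clusters were named from 12 marker lists; that a cluster led by fibroblast and epicardium markers goes into the class of both was decided after the clusters were seen. UMIs were summed per library and class and compared as ratios with conditional binomial intervals; no test was made, since each group has 1 library. The calling step was tested on simulated counts with counting error only, so the spread between cells or libraries was not covered. TMM factors came from edgeR 4.0.16.

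Named members were the 6 with most UMIs, the 3 highest and 3 lowest of each comparison by the interval bound nearest to 0 (at least 50 UMIs), paralogues, and the 3 highest and lowest between the 2 main classes. Other members past 1.5-fold were named after their values were seen. The members and lists were chosen with earlier results of these data known. Values of some single genes are not reported here.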

Additional observations from a re-analysis of the deposited data

Results flagged for a closer look

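Between injured and uninjured libraries the ribosomal protein share of all UMIs went opposite ways in different classes; these differences were not tested, since each group has 1 library. After TMM scaling the log2 ratios were -0.13 in cardiomyocyte-like, -0.65 in fibroblast/epicardium-like, -0.01 in macrophage-like and 0.00 in endocardium-like cells, so that the opposite direction was lost. The log2 ratio in cardiomyocyte-like cells lay 0.48 above that in fibroblast/epicardium-like cells. The log2 ratio in fibroblast/epicardium-like cells differed from that in endocardium-like cells by -0.36 and from that in macrophage-like cells by -0.34.

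rpl22l1 was lower in injured macrophage-like cells and higher in the other classes described. Its log2 ratio lay above that of macrophage-like cells by 1.55 in cardiomyocyte-like, 1.59 in endocardium-like, 1.16 in fibroblast/epicardium-like and 1.54 in T and NK cell-like cells, and these differences were not tested. For rps27l, which had 37 UMIs in injured and 80 in uninjured macrophage-like cells, the same differences were 1.06, 2.24, 1.32 and 1.08 in that order of classes. Its macrophage-like interval included equality, and T and NK cell-like cells had 31 UMIs in injured and 20 in uninjured. Without the 5% of cells with most of its UMIs the cardiomyocyte-like log2 ratio turned to -0.11 (-0.41 to 0.19).

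The barcodes that the filters left out also held ribosomal protein UMIs. Of their UMIs not encoded by mitochondria, 14.9% in the pdgfrb-/- and 18.5% in the wildtype library, and 20.1% in the injured and 22.7% in the uninjured library, came from ribosomal protein genes.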

How the results depend on the processing

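The log2 ratio of the ribosomal protein share was recomputed under each alternative, with classes in the order all kept, cardiomyocyte-like, fibroblast/epicardium-like and, for the injured pair, endocardium-like cells. TMM scaling gave 0.38, 0.083 and 0.76 for pdgfrb-/- against wildtype, and -0.30, -0.13, -0.65 and -0.00062 for injured against uninjured, where the first, second and last turned sign; the cause was not tested. The mean of the cells' shares gave 0.23, 0.090 and 0.49, and 0.038, 0.22, -0.23 and 0.051. Thinning every cell to 500 UMIs gave 0.23 and 0.089 for the first 2 classes of the pdgfrb-/- pair, and 0.043, 0.24, -0.23 and 0.047 for the injured pair. With at most 10% mitochondrial UMIs the values were 0.21, 0.13 and 0.44, and 0.013 for all kept and -0.30 for fibroblast/epicardium-like cells of the injured pair. All deposited barcodes gave 0.21 in both pairs, with mitochondrial UMIs at 26.7% in injured and 35.8% in uninjured barcodes. Without mitochondrial genes in the total the injured pair gave 0.016 and 0.20 in the first 2 classes. Leaving out the highest doublet scores gave 0.10 and 0.44 in the pdgfrb-/- classes, and 0.023, 0.21, -0.29 and 0.10 in the injured pair; keeping the marked doublets gave -0.27, and a clustering resolution of 2.0 gave 0.18 and -0.28, in cardiomyocyte-like and fibroblast/epicardium-like cells.

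The count of members past 1.5-fold in pdgfrb-/- fibroblast/epicardium-like cells was 7, and 75 with TMM scaling, 17 with thinned cells, 4 without the highest doublet scores, 2 with at most 10% mitochondrial UMIs and 0 at 2-fold. In pdgfrb-/- cardiomyocyte-like cells the 1 member was 0 at 2-fold and with thinned cells. In the injured pair the count over all kept cells was 0 with TMM scaling and at 2-fold, that in cardiomyocyte-like cells 1 under both, and that in fibroblast/epicardium-like cells 58 with TMM scaling, 0 at 2-fold and 1 with at most 10% mitochondrial UMIs, without the highest doublet scores and with thinned cells.

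2 alternatives were chosen after seeing the data. Single clusters gave 0.087, 0.047, 0.025, 0.14, 0.17, 0.061 and 0.19 in pdgfrb-/- cardiomyocyte-like and 0.48 in fibroblast-like cells; in the injured pair they gave 0.20, 0.34, 0.28, 0.060 and 0.22 in cardiomyocyte-like cells, -0.19, -0.16 and -0.25 in fibroblast/epicardium-like cells, and 0.12 and, in the small cluster, -0.48 in endocardium-like cells. Without the cells with most of its UMIs rps27l turned to -0.11 in injured cardiomyocyte-like cells. No paired analysis was possible because each group has 1 library, and no replicate could be left out. Depth limits rps8b, rps19bp1, rpl7l1, rpl26 and rps27l most.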

Other observations

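Between the 2 pairs of libraries age, transgenes and library preparation cannot be told apart, and the clusters that made up the classes differed as well. The following values were picked after they were seen. Counts of members are given without a count over all genes, so they cannot be read as particular to the set. Of 80 members with at least 100 UMIs in each library's cardiomyocyte-like cells, 33 made up more and 32 less of the ribosomal protein UMIs in both libraries of 18 months than in both of 6 months, 11 and 1 of them by more than 1.5-fold. rps18, of the small subunit, made up 0.733% of them in injured, 0.765% in uninjured, 0.297% in pdgfrb-/- and 0.325% in wildtype cardiomyocyte-like cells, and 0.774%, 0.739%, 0.282% and 0.315% in fibroblast/epicardium-like cells. rpl4, of the large subunit, made up 0.433%, 0.408%, 0.175% and 0.153% of them in cardiomyocyte-like cells in the same order of libraries, and rpl3 0.712%, 0.643%, 0.278% and 0.286%. rpl26 ran the other way, with 0.0479%, 0.0340%, 0.0730% and 0.124%.

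Erythrocyte-like cells had a ribosomal protein share of 6.39% in pdgfrb-/- (22 cells) and 11.9% in wildtype (15 cells), and 16.8% in injured (50 cells) and 6.94% in uninjured (19 cells). The median cell's share was 15.1% in pdgfrb-/- and 18.2% in wildtype, and 10.9% in injured and 16.6% in uninjured cells, so in the 18-month pair it ran the other way from the summed UMIs. Haemoglobin genes took up 64.2% of their UMIs in pdgfrb-/- and 42.8% in wildtype, and 40.0% in injured and 59.5% in uninjured cells.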
